A study of Drosophila melanogaster with 4 samples.

Results

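The regions described here are those of LSD1 enrichment on chromosome 4, on the heterochromatic sequences and on the unplaced sequence of the Drosophila melanogaster genome. They were taken by sequence name from the combined list of enriched regions, and they number 233 of its 9018 regions. Of these, 61 lay on chromosome 4, 85 on the 6 heterochromatic sequences and 87 on the sequence U. The heterochromatic regions were divided into 28 on 2RHet, 22 on 3RHet, 21 on 3LHet, 6 on XHet, 5 on 2LHet and 3 on YHet. The rule used position only, so widths, scores and support in the replicates are independent of it.

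Chromatin came from whole wild-type Oregon-R embryos, 14 to 16 h old, with all cell types together. It was fixed with formaldehyde, precipitated with the LSD1 antibody named Q3430 in the labels, and sequenced (ChIP-seq). There were 2 ChIP samples and 2 input samples of genomic DNA, each input serving 1 ChIP, and no strain, treatment or stage was compared with another. The authors deposited 1 list of regions per ChIP replicate and a combined list for both. Whether the replicates are separate collections of embryos is not stated in the labels, so differences between them may be technical.

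LSD1 is an enzyme that takes methyl groups off lysine 4 of histone H3, where they mark active chromatin. In Drosophila its loss relieves the silencing of genes placed next to heterochromatin, the compact, repeat-rich chromatin found around centromeres and over the Y chromosome. Chromosome 4, the smallest chromosome, carries active genes within chromatin that is rich in repeats and in the heterochromatin protein HP1. In the genome release used here, release 5, the sequences whose names end in Het are assembled pieces of heterochromatin assigned to a chromosome. U joins scaffolds that were assigned to none, so a distance on U need not be a distance in the genome.

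Each region has a width and 1 score from the authors, whose values lie on a log2 scale, and enrichment is given here as fold, that is 2 to the power of the score. Behind each score stands a ratio of 2 whole numbers, multiplied by a constant of the list. The files do not say what these numbers count, and the ratio is known in lowest terms only. Each number is therefore a lower bound for the constant used, which is itself fixed only up to a ratio of whole numbers. The read depth per sample is unknown. A region is called held by a replicate when it shares at least 1 bp with a region of that replicate's list. Values for the 8785 regions of the 5 large arms 2L, 2R, 3L, 3R and X are set beside those of the 233 as a description. No difference from the arms was tested, because there is 1 value per region and the ChIP samples form 1 group.

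The 3 kinds of sequence differed in how LSD1 regions looked on them. Chromosome 4 resembled the arms in width and score, its median region being 1683 bp wide and enriched 1.30-fold, and that of the arms 1655 bp and 1.35-fold. On the heterochromatic sequences the medians were 1829 bp and 1.44-fold, and the upper quartile of 2.44-fold compared with 1.41-fold on the arms. U had the narrowest regions, with a median of 1523 bp, and the highest scores, with a median of 2.43-fold. Of the whole combined list 4.56% exceeded 2-fold. Against this, 7 regions of chromosome 4 (11.5%), 27 heterochromatic regions (31.8%) and 52 regions on U (59.8%) did so. Above 4-fold, where 1.21% of the whole list lay, there were 0 regions on chromosome 4, 9 heterochromatic regions and 24 on U.

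**Figure D1:**
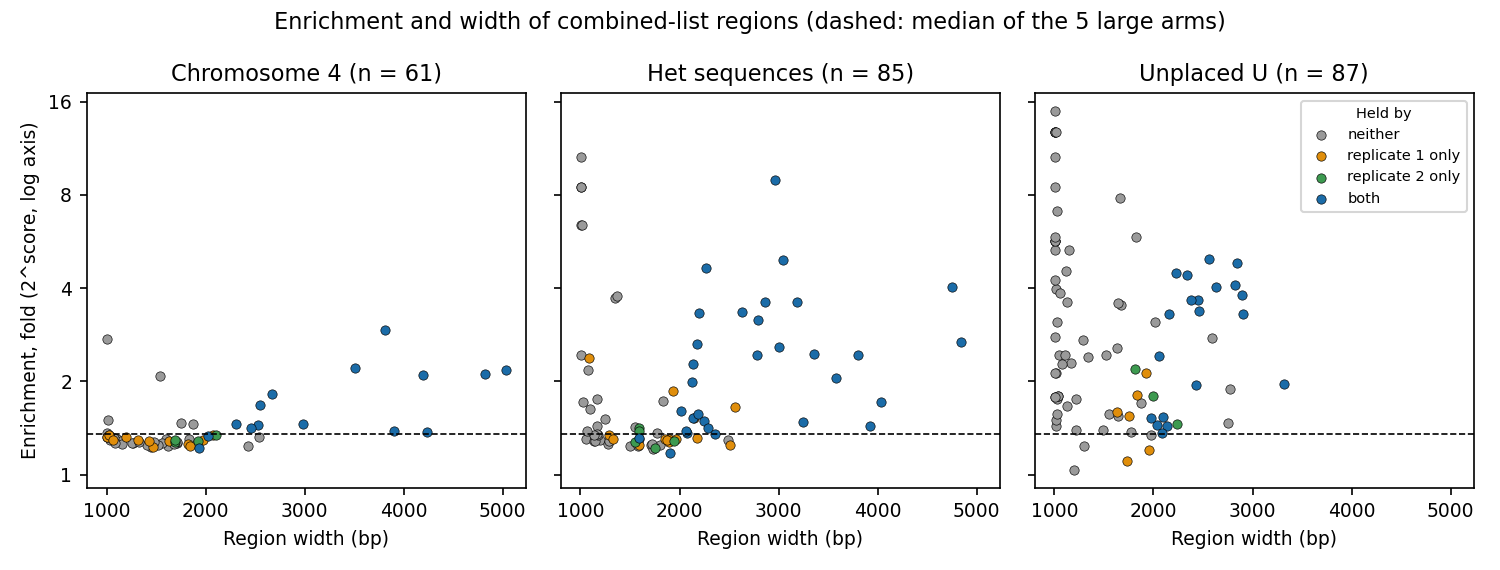
Enrichment as fold (log axis) against region width in bp for the combined-list regions of chromosome 4, the heterochromatic (Het) sequences and U, 1 point per region. Colours give the replicate lists that hold the region, and the dashed line is the median of 1.35-fold on the 5 large arms. Regions held by both replicates are mostly wider than 2000 bp, while a column of grey points near 1001 bp reaches 10.6-fold on the heterochromatic sequences and 14.9-fold on U.

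Over regions of all widths, support by at least 1 replicate was most frequent on the heterochromatic sequences and least on U. In the whole combined list 47.9% of regions were held by at least 1 replicate and 18.3% by both. On chromosome 4 the counts were 31 of 61 (50.8%, 95% exact binomial interval 37.7 to 63.9) and 15 of 61 (24.6%, 14.5 to 37.3), close to those shares. On the heterochromatic sequences they were 50 of 85 (58.8%, 47.6 to 69.4) and 31 of 85 (36.5%, 26.3 to 47.6). On U they were 29 of 87 (33.3%, 23.6 to 44.3) and 20 of 87 (23.0%, 14.6 to 33.2). U thus had the largest share of regions in neither list, 66.7% against 52.1% on the arms, while its share held by both was above the 18.0% of the arms with an interval that includes it. The intervals cover counting error only. Replicate 1, which had the longer list, held 40.1% of the whole combined list and replicate 2 held 26.1%. The respective counts were 27 and 19 on chromosome 4, 45 and 36 on the heterochromatic sequences and 26 and 23 on U, so the lead of replicate 1 was small on U.

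**Figure D2:**
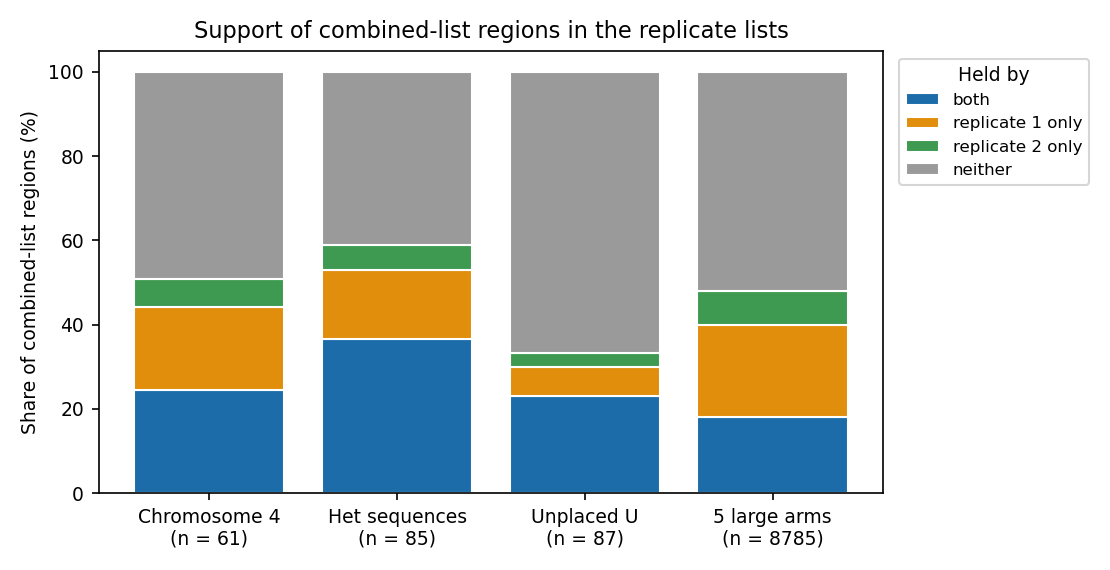
Share of combined-list regions, in percent, that are held by both replicate lists, by 1 of them or by neither, for chromosome 4, the heterochromatic sequences, U and the 5 large arms. The blue part, held by both, is 36.5% on the heterochromatic sequences, 24.6% on chromosome 4, 23.0% on U and 18.0% on the arms, and the grey part, held by neither, is 66.7% on U.

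Width went with support on all 3, and the lower share on U was not found at a width of 1301 bp or more. At those widths at least 1 replicate held 61.4% of 44 regions on chromosome 4, 78.7% of 61 heterochromatic regions, 63.0% of 46 on U and 64.6% on the arms. Both held 34.1%, 50.8% and 43.5% of the first 3, and for the arms this share is given by width class only. From 1301 up to 2000 bp both held 1 of 26, 2 of 27 and 1 of 22, next to 3.35% of 3222 on the arms. Regions of the combined list started at a width of 1001 bp, those of both replicate lists at 1301 bp. Of the whole combined list 30.9% of regions were narrower than 1301 bp. On chromosome 4 there were 17 such regions (27.9%), of which 4 were held by a replicate, on the heterochromatic sequences 24 (28.2%), of which 2 were held, and on U 41 (47.1%), of which 0 were held. Exactly 1001 bp wide were 2.64% of the whole list, against 1 region on chromosome 4, 5 heterochromatic regions and 15 on U. From 2000 up to 3000 bp, replicates held 9 of 11 regions on chromosome 4, 22 of 23 heterochromatic regions and 19 of 23 on U, next to 85.1% on the arms. In this width class both replicates held 7 of the 11 (63.6%), 18 of the 23 (78.3%) and 18 of the 23 (78.3%), next to 45.1% on the arms. From 3000 bp on, all 7 regions of chromosome 4, all 11 heterochromatic regions and the 1 region on U were held by both replicates, next to 60.0% of 1234 on the arms.

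Chromosome 4 carried a small set of enriched regions of several kb on a background of shallow ones. The highest score of chromosome 4 in the combined list was at 4:464022-467828 (release 5, as are all positions here). This region of 3807 bp scored 2.94-fold there, 3.77-fold in replicate 1 and 3.51-fold in replicate 2. Its whole numbers were 1631 and 1181, and it stood at place 203 of the 9018. The other 4 regions above 2-fold that both replicates held were of like width and score. At 4:212934-216442 the folds were 2.21, 2.36 and 2.25 in the same order, and at 4:977826-982858, with 5033 bp the widest region of the chromosome, they were 2.18, 2.28 and 2.80. At 4:524732-529550 they were 2.12, 2.41 and 2.31, and at 4:149652-153846 they were 2.10, 2.53 and 2.72. These 5 regions were between 3509 and 5033 bp wide, and in all 5 both replicates gave a higher fold than the combined list, each list having its own scale. Next among the regions held by both was 4:1201418-1204092, with 1.83-fold, 1.95-fold and 1.98-fold. The next widest region after 4:977826-982858 and 4:524732-529550, 4:199158-203390, was held by both at only 1.38-fold, 1.45-fold and 1.46-fold, so width alone did not go with a high score here.

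The remaining 2 regions of chromosome 4 above 2-fold lay close together near the high-numbered end and were held by neither replicate. They were 4:1305158-1306158, 1001 bp wide and 2.75-fold with whole numbers 22 and 17, and 4:1296644-1298184, 1541 bp wide and 2.08-fold with 44 and 45. Their second numbers per kb, in lowest terms, were 17.0 and 29.2, against a median of 273.4 on the chromosome. Low values also occurred among the 15 regions held by both, whose median was 309.65. The lowest were 16.8 at 4:199158-203390 and 6.38 at 4:576830-579808, from second numbers of 71 and 19. In the replicate lists the second numbers were larger, 257 (replicate 1) and 323 (replicate 2) at the former and 109 and 259 at the latter. These low values may therefore come from ratios that reduce. Singled out after their values were seen, the 2 regions beside them, 4:1290248-1292002 and 4:1309026-1310896, also lay above the median at 1.47-fold and 1.46-fold with no replicate holding them. Further on, 4:1321564-1323872 was held by both, with folds of 1.45 (combined), 1.57 (replicate 1) and 1.45 (replicate 2). The 4 regions held by neither at this end therefore stood between regions that the replicates did hold, and whether read placement in repeats plays a part there was not tested.

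Along chromosome 4 the regions covered 117 kb, or 8.69% of its 1.35 Mb, against 15.6% of the arms. Their density was 45.1 per Mb (95% exact Poisson interval 34.5 to 58.0) against 73.8 per Mb on the arms, a lower count with a similar median width. Counted in bins of 200 kb by region midpoint, the highest counts were 15 in the third bin and 12 in the fourth, while the others held between 6 and 8. The first region began 80392 bp from the start of the sequence and the last ended 27985 bp before its end. The median gap between neighbours was 9.77 kb, against 4.22 kb on the arms, and 20 of 60 gaps (33.3%) were under 5 kb, against 53.5% on the arms. The longest run of regions less than 5 kb apart held 6 regions in 21.9 kb at 4:507654-529550, of which 4 were held by a replicate, and ended in the widest of them at 2.12-fold. The longest stretch without a region was 101 kb, at 4:277083-378571. Regions of chromosome 4 were thus sparser than those on the arms, with a smaller share of gaps under 5 kb. Whether they stood in runs more often than random placement at this density would give was not tested.

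**Figure D3:**
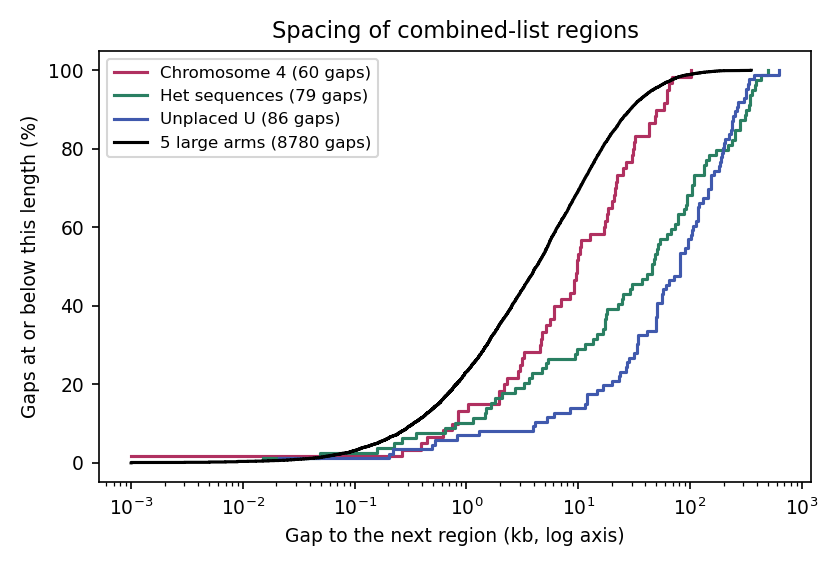
Cumulative share of gaps between neighbouring combined-list regions, in percent, against gap length in kb (log axis; gaps under 1 bp are drawn at 1 bp), for chromosome 4, the heterochromatic sequences, U and the 5 large arms. The curves lie in the order arms, chromosome 4, heterochromatic sequences and U at their midpoints, with median gaps of 4.22, 9.77, 46.2 and 82.0 kb.

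The heterochromatic sequences were sparsely occupied, but where both replicates held a region it was often strongly enriched. Density was 9.16 per Mb (95% exact Poisson interval 7.31 to 11.3) over 9.28 Mb, with 1.80% of the bases covered. Between 8.22 and 8.74 regions per Mb were found on 2RHet, 3LHet, 3RHet and YHet, where the value of YHet rested on 3 regions (1.78 to 25.3). On 2LHet and XHet, short like YHet, there were 13.6 (4.40 to 31.6) and 29.4 per Mb (10.8 to 64.0), with wide intervals for 5 and 6 regions. The part of these sequences that reads can be placed on is not known here, so the densities are counts of called regions, and its share in them was not tested. The median gap was 46.2 kb, and the longest stretch without a region was 501 kb, at 3LHet:895027-1395697. The median of the 31 regions held by both replicates was 2.27-fold, that of the 1583 such regions on the arms 1.495-fold, and 17 of them (54.8%) exceeded 2-fold against 18.3% there.

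The strongest heterochromatic region that both replicates held was 2RHet:2283050-2286014. Its 2965 bp scored 8.95-fold (combined), 8.94-fold (replicate 1) and 10.6-fold (replicate 2), and it took places 6 and 7 of the replicate lists. Its whole numbers in the combined list were 459 and 109. After it came 3RHet:1767348-1770388, at 4.95-fold, 4.70-fold and 5.48-fold, and 3LHet:737134-739404, at 4.65-fold, 4.25-fold and 5.51-fold. The fourth was 2LHet:167968-172718, at 4.03-fold, 3.89-fold and 4.23-fold, with the largest whole numbers of the 4, 1971 and 1039. The fifth, 3LHet:680514-683372, differed more between lists, with 3.62-fold, 5.03-fold and 4.12-fold. These 5 regions lay on 4 different sequences, and the replicate regions covered between 83.5% and 97.7% of each in both lists.

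The 11 heterochromatic regions of 3000 bp or more had a median of 2.46-fold, the highest of the 4 width classes, but the widest 3 were spread from 1.72-fold to 4.03-fold. The widest was 2RHet:1334650-1339486, of 4837 bp, with folds of 2.69 (combined), 2.90 (replicate 1) and 2.92 (replicate 2). It was followed by the 4751 bp of 2LHet:167968-172718, given above, and by 3LHet:600482-604516, of 4035 bp, at 1.72-fold, 1.85-fold and 1.80-fold. Regions also stood in a group on 2RHet. The longest run of regions less than 5 kb apart held 4 regions in 15.6 kb at 2RHet:332966-348610, of which 3 were held by both replicates, with folds between 1.53 and 3.35. Each of those 3 met a separate region in each replicate list, so the replicates resolved them in the same way.

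The highest scores of the heterochromatic sequences were otherwise of another kind, narrow and in neither replicate list. The top score, 10.6-fold, was at 2RHet:593374-594374. It was followed, beside the region at 2RHet:2283050-2286014, by 2RHet:1841144-1842144 and 3RHet:1713800-1714800 at 8.50-fold each, and by 2RHet:1428444-1429444 and 2RHet:2229932-2230942 at 6.38-fold each. Of these 5, 4 were 1001 bp wide and the last was 1011 bp wide. Their first whole numbers lay between 3 and 5, and the second number was 1 in each. They were the only heterochromatic regions above 4-fold that neither replicate held, and the other 4 above 4-fold were held by both, with widths of 2271 bp or more and second numbers between 16 and 1039. Over all heterochromatic regions the medians had the other order, with 1.37-fold for 35 regions in neither list and 2.27-fold for 31 in both. The order was the same on 2LHet, 3LHet and 3RHet, while on 2RHet the medians were 3.72-fold for 9 regions in neither list and 2.44-fold for 13 in both.

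XHet and YHet, the pieces assigned to the sex chromosomes, gave opposite pictures on few regions. All 6 regions of XHet were shallow. They were XHet:50020-51308 at 1.29-fold, XHet:51662-52798 at 1.34-fold, XHet:70458-72330 at 1.295-fold, XHet:75624-77208 at 1.24-fold, XHet:107444-108994 at 1.43-fold and XHet:134324-135392 at 1.39-fold. A replicate held 1 of them, at XHet:70458-72330, which replicate 1 had at 1.44-fold. On YHet the 3 regions lay near the high-numbered end, with a median gap of 5.22 kb, and all were held by replicate 1. At YHet:313022-315156 the folds were 2.27 (combined), 2.48 (replicate 1) and 2.29 (replicate 2), and at YHet:327534-329654 they were 1.99, 2.01 and 2.34. Between them, YHet:320500-322432 had 1.86-fold and 2.03-fold in replicate 1 and was not held by replicate 2. The second whole number per kb was between 13.6 and 51.9 on these 3 and between 56.1 and 250.6 on XHet. The Y is carried by males only and the labels give no sex of the embryos.

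U held the highest score of the whole combined list. Above 4-fold and exactly 1001 bp wide were 12 regions on U, 4 on the heterochromatic sequences and 4 on the arms, all held by neither replicate. That score, 14.9-fold, was at U:7289244-7290244, 1001 bp wide, with whole numbers 7 and 1. Tied at place 3 of the list were U:690890-691890, U:6257336-6258336, U:8408020-8409020 and U:9673654-9674664, each at 12.8-fold with whole numbers 6 and 1. Then came U:6770862-6771862 at 10.6-fold with 5 and 1, U:1991500-1992500 at 8.50-fold with 4 and 1, and U:7427168-7428824 at 7.79-fold with 11 and 3. None of these 8 was held by a replicate, and 6 of them were exactly 1001 bp wide. Among the 10 highest scores of the whole combined list, 5 lay on U and 5 on the arms, and 3 of the latter but 0 of the former were held by both replicates.

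The 37 regions of U above 2-fold that neither replicate held had second numbers between 1 and 33. The second number is the divisor in the fold and so not independent of it, but a small one does not by itself give a high fold. A second number of at most 10 was found for 2.22% of the whole combined list, against 2 regions on chromosome 4 (3.28%), 9 heterochromatic regions (10.6%) and 28 on U (32.2%). A number can be small because the ratio reduces, and the 2.22% includes such cases. A second number of 1 was found for 0.233% of the whole list, and for 0 regions on chromosome 4, 5 heterochromatic regions and 11 on U. Of the 28 regions on U, 27 exceeded 2-fold, 21 were narrower than 1301 bp and 2 were held by a replicate. Of the 161 such regions on the arms, 23 exceeded 2-fold, 78 were narrower than 1301 bp and 42 were held by a replicate. Above 4-fold and in neither list, where 0.377% of the whole list lay, there were 18 regions on U, with second numbers between 1 and 7, 5 heterochromatic ones and 11 on the arms, with second numbers between 1 and 9. The 58 regions of U in neither list had a median second number of 12.5, against 243 for the 4577 such regions of the arms.

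**Figure D4:**
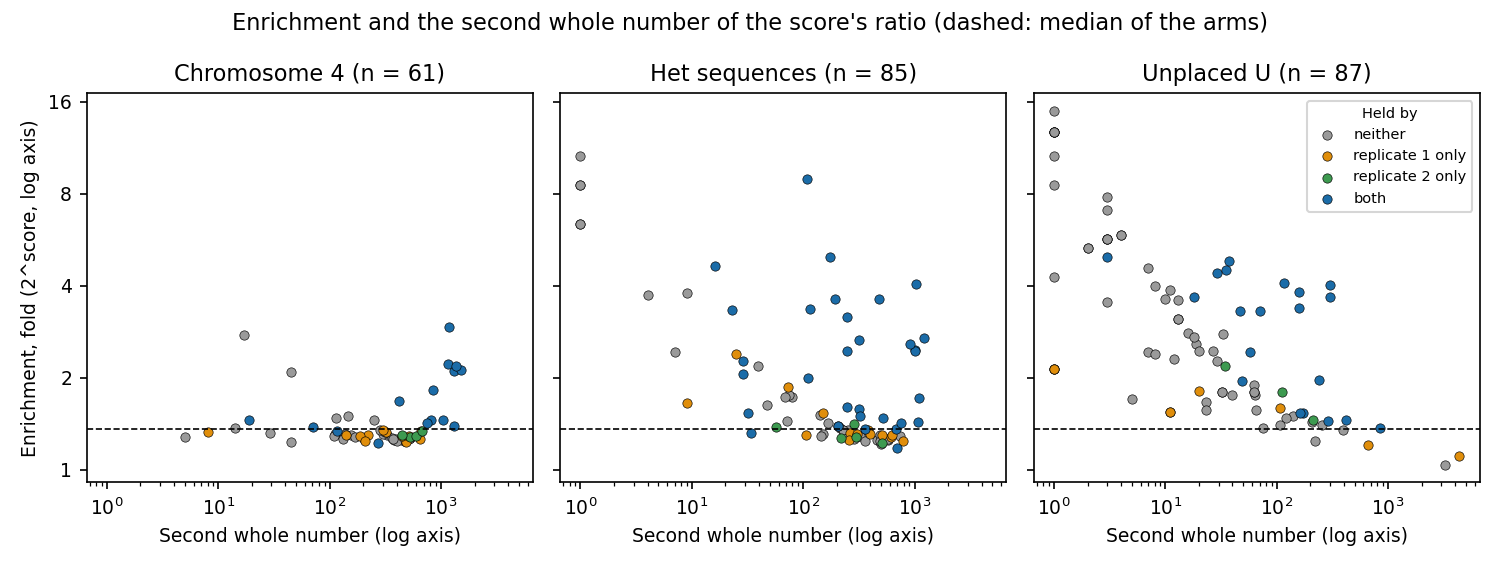
Enrichment as fold (log axis) against the second whole number of the score's ratio in lowest terms (log axis) for chromosome 4, the heterochromatic sequences and U, 1 point per region, coloured by the replicate lists that hold it. The dashed line is the median of 1.35-fold on the arms. On U the grey points fall from 14.9-fold at a second number of 1 towards the dashed line, while 13 blue points, held by both replicates, exceed 2-fold at second numbers between 3 and 303.

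Beside these, U held a set of regions that both replicates called. The median of the 20 regions held by both was 3.34-fold, and 13 of them (65.0%) exceeded 2-fold against 18.3% on the arms. The highest was U:4667136-4669700, with folds of 4.96 (combined), 4.23 (replicate 1) and 5.65 (replicate 2). Its whole numbers in lowest terms were 7 and 3 (combined), 33 and 14 (replicate 1) and 9 and 4 (replicate 2). The 7 and 3 may therefore come from a ratio that reduces, and they do not show that the region rests on small numbers. Next were U:893912-896758, at 4.83-fold, 5.28-fold and 4.34-fold, and U:3249368-3251594, at 4.49-fold, 4.75-fold and 4.34-fold. After them came U:2902084-2904424, at 4.40-fold, 4.65-fold and 4.16-fold, and U:352386-355204, at 4.09-fold, 4.44-fold and 4.39-fold. These 5 were between 2227 and 2847 bp wide, and none came near the 1001 bp minimum. The widest on U was U:2095168-2098488, of 3321 bp, at 1.97-fold, 2.11-fold and 3.26-fold. It was followed by U:6664814-6667714, at 3.29-fold, 3.31-fold and 3.59-fold, and by U:3879242-3882136, at 3.81-fold, 5.87-fold and 5.47-fold. All 20 met exactly 1 region in each replicate list. Their second numbers were nevertheless low for their width, with a median of 48.2 per kb against 224.9 per kb for regions of the arms held by both and 309.65 per kb on chromosome 4, all in lowest terms.

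The opposite extreme also lay on U. At U:5292910-5294102 the whole numbers were 1586 and 3251, which at 1.04-fold is the lowest score of the combined list, and at U:5289878-5291610 they were 2285 and 4371, at 1.11-fold. These 2 regions, singled out after their values were seen, had the highest second numbers per kb of all 9018 regions, 2725 and 2522. The next member in that order, 4:1321564-1323872, had 447.8 per kb. Replicate 1 held the second of them, at U:5289878-5291610, and replicate 2 held neither. They lay 1299 bp apart on U, in a run of 2 regions.

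The folds of the replicates went together where both held a region. Spearman's rho between the replicate folds was 0.929 over 15 regions on chromosome 4, 0.925 over 31 heterochromatic regions and 0.935 over 20 regions on U, next to 0.708 over 1583 regions on the arms. These are descriptions across regions of the same libraries, in which low scores were cut off by the calling, and the groups differ in their range of scores. Above 2-fold were 9.62% of the whole list of replicate 1 and 15.2% of that of replicate 2, shares that include regions the other replicate lacks. Of the 66 regions, which both lists held, 39 exceeded 2-fold in replicate 1, 38 in replicate 2, and 37 in both. On chromosome 4 the same count was 5 in each list and 5 in both. Among the 66 regions, 64 met exactly 1 region of replicate 1, and all 66 met exactly 1 of replicate 2.

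**Figure D5:**
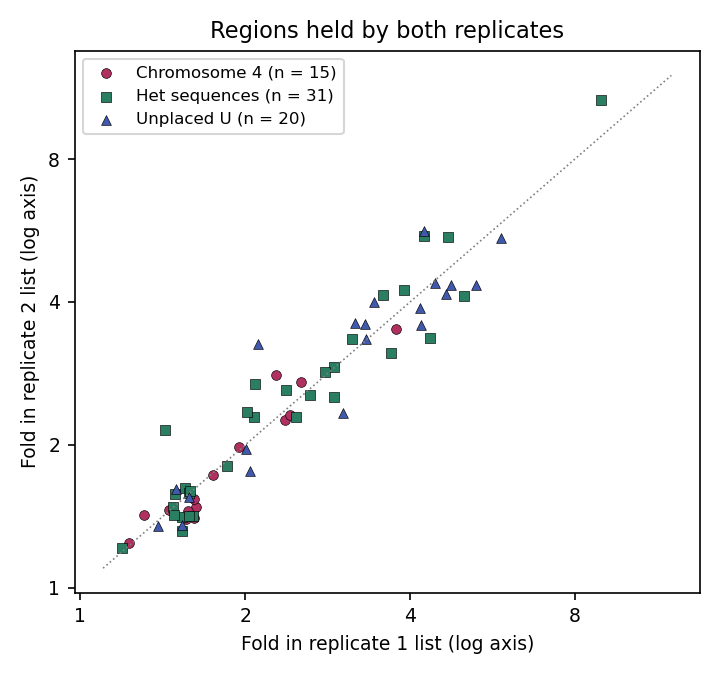
Fold in the replicate 2 list against fold in the replicate 1 list (both log axes) for the 66 combined-list regions held by both replicates, 1 point per region and the highest fold where several replicate regions met it. The dotted line marks equal folds. Points run along the line, with chromosome 4 mostly under 2-fold, and 2RHet:2283050-2286014 at the top right, at 8.94-fold and 10.6-fold.

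Seen from the replicate lists, regions on these sequences were shared more often than on the arms. Replicate 1 had 26 regions on chromosome 4, 45 on the heterochromatic sequences and 27 on U, and replicate 2 had 19, 39 and 25. Over all sequences, 43.7% of the regions of replicate 1 were held by replicate 2, and 68.6% of those of replicate 2 by replicate 1. Of the replicate 1 regions, replicate 2 held 16 (61.5%), 31 (68.9%) and 20 (74.1%), against 43.0% on the arms. Of the replicate 2 regions, replicate 1 held 15 (78.9%), 31 (79.5%) and 20 (80.0%), against 68.3% on the arms. The median folds of these replicate regions were 1.52, 1.68 and 3.02 in replicate 1, where the arms had 1.55, and 1.46, 1.90 and 3.57 in replicate 2, where the arms also had 1.55. Chromosome 4 lay below the arms and both other kinds above them in all 3 lists, each on its own scale. None of these differences was tested.

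Over all sequences, 2.48% of the regions of replicate 1 and 3.07% of those of replicate 2 had no partner in the combined list. All replicate regions of chromosome 4 had a partner. On the heterochromatic sequences and U, 1 region of replicate 1 and 5 of replicate 2 had none, and they were singled out for that. That of replicate 1, U:8716130-8717704, was at place 16 of its list with 6.58-fold and whole numbers 11 and 3. Those of replicate 2 were U:6286132-6287716 at 4.71-fold with 15 and 8, U:8310614-8312131 at 3.77-fold with 3 and 2, YHet:35969-37379 at 1.90-fold, 2LHet:173082-174437 at 1.52-fold and 2RHet:105252-106618 at 1.49-fold. High scores on small numbers thus occurred in the replicate lists on U too, and the widths of these 6 regions were between 1356 and 1585 bp.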

How the data were processed

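The labels assign 1 input to the list of each ChIP replicate. Positions are on FlyBase release 5, per the file headers, and Bowtie 0.12.7 is named in the submitters' processing notes. The caller, its threshold and the making of the combined list were not given in the sources used here. The score that the authors deposited for each region was handled as a log2 value. In all 3 lists 2 to the power of each score, divided by 1 constant (2.13 combined, 1.80 replicate 1, 2.51 replicate 2), was a ratio of whole numbers within 1e-12 (relative) and a denominator of at most 40000. The constant is fixed only up to a ratio of whole numbers, and the one giving the smallest numbers was kept. The depth per sample is unknown. Scores were ranked within a list only.

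Regions overlapping by at least 1 bp were counted as held. Shares have exact binomial and densities exact Poisson intervals at 95%. Sequence lengths came from the file headers, without Uextra, which had 0 regions. Procedures were tested on simulated data. The work used Python 3.11.15 with pandas 2.3.3, numpy 2.4.6, matplotlib 3.10.9 and scipy 1.17.1. Named are, in each of the 3 kinds of sequence, the 8 highest-scoring regions, the widest 3 and the 5 highest-scoring held by both replicates, and every region of XHet and YHet. The members, this rule and the alternatives were chosen with earlier results of these data known. Genes and sequences are not given, because positions are of release 5 and the gene table used is of release 6.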

Additional observations from a re-analysis of the deposited data

How the results depend on the processing

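Of 129 alternatives to 24 results, 81 stayed within the interval of the value or within 1.5 times the count, and 48 moved. A reversal of direction could be recorded only for the median fold over that of the arms, where there were 0. The minimum second numbers were chosen after the data were seen.

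With regions of at least 1301 bp only, the share held by at least 1 replicate rose to 78.7% on the heterochromatic sequences and 63.0% on U, next to 64.6% on the arms. The share held by both rose to 50.8% and 43.5%, for which the arms have values by width class only. Median widths were then 1859 bp on chromosome 4, 2121 bp on the heterochromatic sequences and 2023 bp on U, where the median fold was 2.16, density 4.58 per Mb, the median gap 155 kb and 24 regions exceeded 2-fold. Among regions held by both replicates, in the order chromosome 4, heterochromatic sequences and U, the median folds were 1.45, 2.27 and 3.34, the median widths 2979, 2631 and 2403 bp, the densities 11.1, 3.34 and 1.99 per Mb and the median gaps 50.1, 86.1 and 353.3 kb. Above 2-fold were then 17 heterochromatic regions and 13 on U.

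The second number is the divisor in the fold, so a minimum on it is not independent of the fold. Among regions with a second number of at most 10, 27 of 28 on U exceeded 2-fold, against 23 of 161 on the arms. These numbers are in lowest terms, so both sets can include large numbers whose ratio reduces, and how many is not known. On U such a minimum therefore removed mainly high folds, regions held by both replicates included. With a second number of at least 10 the median on U was 1.80-fold, 26 regions exceeded 2-fold, the median gap was 117 kb and 45.0% were held by at least 1 replicate. With at least 50 it was 1.53-fold over 32 regions, 7 exceeded 2-fold, density was 3.18 per Mb, the median gap 236 kb, the median width 1985 bp, and 56.25% were held by at least 1 replicate and 40.6% by both. On the heterochromatic sequences 13 then exceeded 2-fold.

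With replicate lists of equal length, at least 1 held 31.1% of chromosome 4 regions, 50.6% of heterochromatic regions and 31.0% of those on U. Shortening a list can only lower such shares or leave them as they are. No share of the whole list was computed at this setting, so the 31.1% has no background to be set beside. With either replicate left out, the share held by the other was between 31.1% and 44.3% on chromosome 4, 42.4% and 52.9% on the heterochromatic sequences, and 26.4% and 29.9% on U. In the whole list it was between 26.1% and 40.1%. The replicate lists alone gave between 14.1 and 19.2 regions per Mb on chromosome 4, 4.20 and 4.85 on the heterochromatic sequences and 2.49 and 2.69 on U, with 17 and 20 above 2-fold on U. The median fold of chromosome 4 over that of the arms, 0.964 in the combined list, was between 0.944 and 0.983 in them. No paired analysis was possible because the inputs have no list of their own and no result comes from a test over samples.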
